A study of Rattus norvegicus with 16 samples.

Results

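The genes described here mark the glial cells of the adrenal medulla. They are S100b, Gfap, Sox10, Erbb3, Mbp, Pmp22 and Fabp7, and every probe set of the array whose only gene symbol is one of these 7 was taken, whatever its values. That gave 10 of the 31042 probe sets that are not controls, for 7 of the 14217 genes with a single-symbol probe set. Mbp has 3 probe sets, Pmp22 has 2 and each of the other genes has 1.

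Total RNA of rat adrenal tissue was hybridised to 16 Affymetrix arrays, 1 per sample. All rats came from a mixed background of Sprague–Dawley white eye and Wistar–Kyoto. The mutant rats carried a mutation of p27Kip1 (Cdkn1b), an inhibitor of cyclin-dependent kinases, and develop multiple endocrine tumours, a syndrome called MENX. Hyperplasia means adrenal gland tissue labelled as medullary hyperplasia, from mutant rats of 2 months. It has 8 arrays, 4 labelled female and 4 labelled male. Pheochromocytoma, a tumour of the catecholamine-producing chromaffin cells, came from mutant rats and has 4 arrays, 3 of rats of 8 months labelled female and 1 of a rat of 9 months labelled male. Young wild type means medulla of wild-type rats of 2 months, in a pool of 2 animals labelled male (pool 1) and a pool of 3 labelled female (pool 2). Older wild type has 2 pools of 2 animals each, of 10 months and labelled female (pool 1), and of 12 and 17 months and labelled male (pool 2). The wild-type arrays are pools, so they show less than the spread between animals. The mutant arrays are not labelled as pools, and their number of animals is not given. The older pools are also older than the tumour-bearing rats.

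Sustentacular cells wrap clusters of chromaffin cells, and Schwann cells accompany the nerve fibres that reach them. Both derive from the neural crest. SOX10 is the transcription factor that specifies and maintains this glial lineage, ERBB3 is the receptor through which axonal neuregulin supports it, and S100B and GFAP are the proteins used to see sustentacular cells in sections. In human pathology, S100-positive sustentacular cells around nests of tumour cells are looked for in pheochromocytoma and paraganglioma. MBP and PMP22 are proteins of compact myelin, and FABP7 binds fatty acids in immature glia. None of these genes is restricted to glia: S100b is also made by adipocytes, Pmp22 by fibroblasts, Erbb3 by epithelia, and the Mbp gene also gives transcripts in other cells from a distant start.

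By RefSeq's annotation of the GRCr8 assembly, Erbb3 lies at chr7:1579079-1600379 and Sox10 at chr7:112605721-112615097. Pmp22 lies at chr10:48294932-48324941, Gfap at chr10:88352987-88361661, Mbp at chr18:78130652-78241174, S100b at chr20:12372345-12381159 and Fabp7 at chr20:37667125-37673299. The array values carry no coordinates, and the part of each gene that its probe sets read is not given.

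RefSeq's promoter table (GRCr8) matched 5 of the 7 genes with 6 entries. The upstream sequence is shown for S100b, which had the largest difference of the members in the tumours, and for Pmp22, which differed between the ages on both of its probe sets. Each window is the 250 bases before the table's transcript start, on the strand of the gene, and capitals mark the CCAAT box in either direction (CCAAT or ATTGG).
S100b, chr20:12381082-12381331, minus strand: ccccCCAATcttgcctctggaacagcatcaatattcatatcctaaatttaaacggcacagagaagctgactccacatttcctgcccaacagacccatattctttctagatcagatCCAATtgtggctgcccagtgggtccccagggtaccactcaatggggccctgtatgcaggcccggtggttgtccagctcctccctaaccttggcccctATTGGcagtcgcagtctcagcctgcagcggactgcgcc
Pmp22, chr10:48294682-48294931, plus strand: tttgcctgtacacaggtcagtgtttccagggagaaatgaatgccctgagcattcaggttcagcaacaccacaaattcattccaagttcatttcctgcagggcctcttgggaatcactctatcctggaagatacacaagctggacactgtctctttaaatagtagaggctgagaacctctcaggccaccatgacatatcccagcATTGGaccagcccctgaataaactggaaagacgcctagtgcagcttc
The S100b window holds 3 matches, whose first bases lie 246, 135 and 38 bases before that start, and the Pmp22 window holds 1, at 47 bases. The table's S100b start lies inside the annotated gene, which ends at 12381159, so part of the S100b window and its match at 38 bases lie within the gene. Of 33469 rat promoter windows of the same length, 34.0% hold a CCAAT box. The SOX binding motif was searched only as ACAAAG or ACAATG on both strands, so other forms of it were not counted. These forms are in 25.3% of those windows and in neither of these sequences. Among the other member entries, that of Mbp at chr18:78209995-78210244 held 3 matches to these forms and the rest held none. A match is a description of the letters and says nothing about binding.

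Values are log2 values as deposited, so a difference of 1 is a factor of 2. Levels are compared only within a probe set. Differences are given ± standard error from a limma fit over all 16 arrays, and a probe set passed where its Benjamini-Hochberg adjusted p over all 31042 probe sets was under 0.05. The array medians lay between 6.51 and 6.61. Markers of chromaffin cells averaged between 12.74 and 13.56 on every array. The level of Xist, which is transcribed from the inactive X chromosome, went against the labelled sex on 6 arrays, 4 of hyperplasia and both young pools, so the labelled sex was not used in the fit. Hexokinase control probe sets read 2.16 to 3.30 higher at the 3′ than at the 5′ end on the arrays of older rats and 1.07 to 1.63 higher on those of young rats. That difference in RNA quality runs with age, and no comparison across ages can be told apart from it. The brighter Cdkn1b probe set was at 11.58 to 11.86 in hyperplasia against 10.89 to 11.04 in the young pools, and the dimmer one at 5.45 to 6.81 against 6.84 to 6.96. Their position against the mutated site is unknown here, so they do not check the genotype.

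In the tumours S100b was 2.71-fold lower than in older wild type. Sox10 was 1.60-fold higher there (limma, adjusted p = 0.0491), a call that held in 5 of 17 alternative fits, with a log2 difference of 0.26 when the mean of cortex markers was a covariate. One Mbp probe set was 1.83-fold higher, and the other 7 member probe sets did not pass. These 3 of 10 compare with 14.3% of all probe sets that passed in this comparison, 8.31% higher and 5.95% lower. The arrays of the groups did not overlap in 4 of 10, against 39.8% of all probe sets, and an unadjusted p was under 0.05 in 4 of 10, against 29.6%. The median difference over the 10 was 0.03, against -0.01 over all probe sets.

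**Figure D1:**
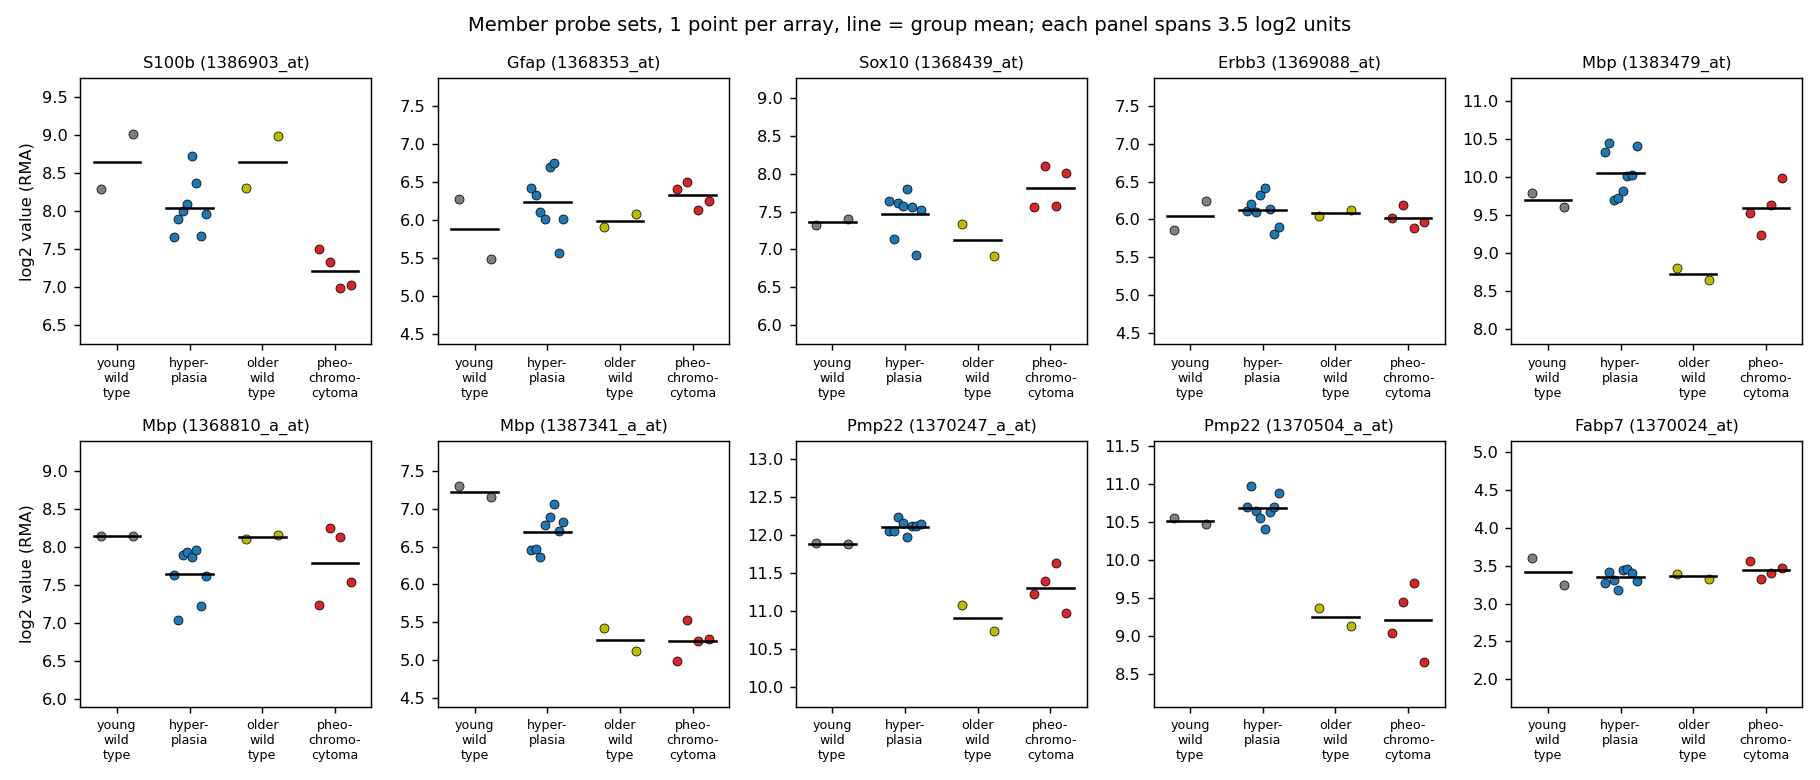
Log2 value (vertical axis) of each member probe set on each of the 16 arrays, by group (horizontal axis), with 1 point per array and a line at the group mean. S100b in the 4 tumours lies at 6.98 to 7.50, below every other array, and both Pmp22 panels and that of Mbp 1387341_a_at show the arrays of older rats below those of young rats.

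S100b codes for a calcium-binding protein of glia. Its probe set was at 7.50, 7.32, 6.98 and 7.02 in tumours 1 to 4 and at 8.30 and 8.99 in the older pools 1 and 2. All 4 tumours lay below both pools. The means were 7.21 ± 0.25 (SD, n = 4) and 8.65 ± 0.49 (SD, n = 2), a difference of -1.44 ± 0.28 with a 95% confidence interval from -2.04 to -0.84 (limma, adjusted p = 0.0040). Whether tumours hold fewer S100b-expressing cells or less of its RNA per cell cannot be told apart in tissue RNA. It did not pass without older pool 2, the higher of the pools, at -1.09 (limma, adjusted p = 0.127), nor with the cortex mean as covariate, at -1.19 (limma, adjusted p = 0.181).

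Markers of other cells moved in the same comparison as S100b. Of the 10 adrenal cortex markers measured, 7 fell in the tumours and none rose, where 1009 of 14217 genes fell. Their list mean was 10.37 to 11.68 in the tumours against 11.98 to 12.16 in older wild type. The 7 became 0 without older pool 2, 3 without older pool 1 and 2 without the hyperplasia arrays whose Xist goes against the label. Of the 7 adipocyte markers measured, 2 fell and none rose, with a list mean of 5.92 to 6.15 against 6.13 to 6.67. In the tumours 4 of these markers averaged under the first quartile, and 3 did in older wild type, so that mean holds low signals. Of 9 chromaffin markers 2 rose and none fell, and of 10 fibroblast and pericyte markers 1 rose and none fell. Of 8 markers of ganglion neurons 2 rose and 1 fell, and of 9 endothelium markers 1 fell and none rose. No macrophage, leukocyte or red blood cell marker passed. Over the 16 arrays S100b correlated at r = 0.59 with the adipocyte mean and r = 0.51 with the cortex mean, as a description over arrays that share their groups. With the chromaffin mean r was -0.50, and with the remaining cell marker means it lay between -0.25 (endothelium) and 0.36 (macrophages and leukocytes). Within the 8 hyperplasia arrays r was 0.35 for adipocytes, -0.11 for cortex, and -0.45 for chromaffin cells and for endothelium. There it was 0.38 for macrophages and leukocytes, 0.15 for neurons of ganglia, -0.10 for fibroblasts and pericytes and -0.32 for red blood cells. The part of these cells in the S100b result was not tested beyond the cortex covariate.

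Sox10 was at 7.56, 8.10, 7.57 and 8.00 in tumours 1 to 4 and at 7.34 and 6.91 in the older pools. The tumours lay above both pools, tumours 2 and 4 clearly and tumours 1 and 3 by little. The means were 7.81 ± 0.28 (SD, n = 4) and 7.12 ± 0.30 (SD, n = 2), a difference of 0.68 ± 0.22 with a 95% confidence interval from 0.21 to 1.15 (limma, adjusted p = 0.0491). The values in the alternative fits ran from 0.26 to 0.89. The lowest (limma, adjusted p = 0.711) came with the cortex covariate, and Sox10 was at 0.47 without older pool 2 (limma, adjusted p = 0.437). Over the 16 arrays Sox10 correlated at r = -0.59 with the cortex mean.

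Mbp codes for myelin basic protein, and its 3 probe sets did not move together. Probe set 1383479_at was at 9.53, 9.25, 9.64 and 9.99 in the tumours and at 8.80 and 8.65 in the older pools, so the groups did not overlap. Its difference was 0.88 ± 0.23 with a 95% confidence interval from 0.39 to 1.36 (limma, adjusted p = 0.0181). It did not pass with array weights at 0.78, with the cortex covariate at 0.86, or without older pool 2 at 0.80, and their limma adjusted p-values were 0.0597, 0.237 and 0.192. Probe set 1368810_a_at was at 7.23, 8.25, 8.13 and 7.54 in the tumours, on both sides of the older pools at 8.10 and 8.17, with a difference of -0.34 ± 0.28. Probe set 1387341_a_at was at 4.99 to 5.53 in the tumours and 5.13 to 5.42 in the older pools, a difference of -0.01 ± 0.19 whose interval ran from -0.41 to 0.38. Which Mbp transcripts each probe set detects is not given, so the higher value belongs to that probe set and not to the gene as a whole.

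Pmp22 codes for a tetraspan protein of peripheral myelin. Its probe set 1370247_a_at was at 11.22, 11.40, 11.63 and 10.97 in the tumours and 11.08 and 10.74 in the older pools, where tumour 4 lay between the pools. The difference of 0.40 ± 0.15 did not pass (limma, adjusted p = 0.0797), though it did without tumour 4, at 0.51 (limma, adjusted p = 0.0232), and without older pool 1, at 0.57 (limma, adjusted p = 0.0464). It passed in these 2 of 17 alternatives, and without older pool 2 it was at 0.23 (limma, adjusted p = 0.583). Its other probe set, 1370504_a_at, was at 8.66 to 9.70 in the tumours against 9.13 to 9.37, a difference of -0.04 ± 0.22.

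Gfap, the intermediate filament of astrocytes and of some sustentacular cells, was at 6.41, 6.50, 6.14 and 6.25 in the tumours and 5.90 and 6.08 in the older pools. The tumours lay just above the pools, and the difference of 0.34 ± 0.27 did not pass (limma, adjusted p = 0.450). Erbb3, the neuregulin receptor, was at 5.89 to 6.18 in the tumours and 6.04 to 6.12 in the pools, a difference of -0.07 ± 0.16 with an interval from -0.40 to 0.26. Fabp7 lay under the first quartile of every array, at 3.18 to 3.60, so its expression was not shown and a difference could be missed.

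**Figure D2:**
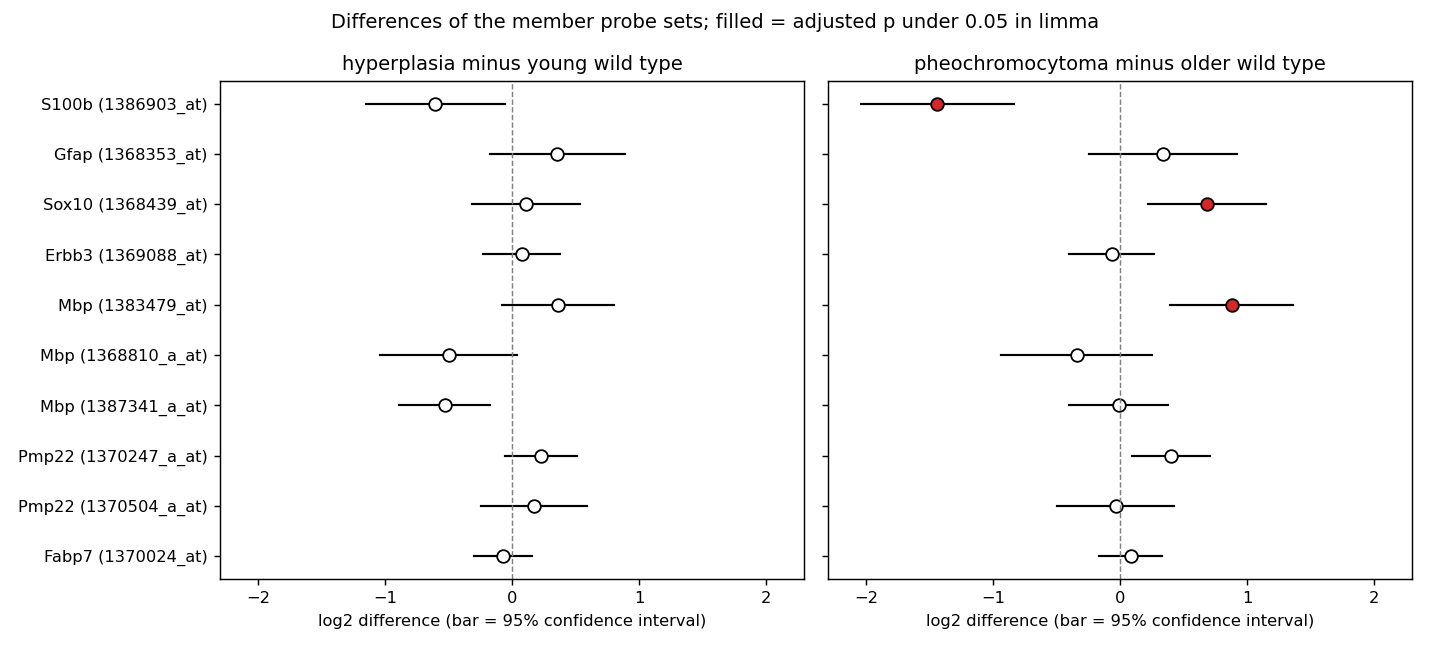
Log2 difference (horizontal axis) of each member probe set in the comparison at 2 months (left) and in the older rats (right), with the 95% confidence interval as a bar and filled points where the adjusted p was under 0.05. No point is filled on the left, and S100b (-1.44), Sox10 (0.68) and Mbp 1383479_at (0.88) are filled on the right.

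At 2 months, in hyperplasia against young wild type, none of the 10 member probe sets passed in limma, where 7.4% of all probe sets did. At an unadjusted p under 0.05 there were 2 of 10, S100b and Mbp 1387341_a_at, against 22.7% of all probe sets. Both were lower in hyperplasia. In 3 of 10 the arrays of the groups did not overlap, against 19.2% of all probe sets.

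S100b was at 7.65 to 8.73 in hyperplasia, with a median of 7.98, and at 8.29 and 9.01 in the young pools. Hyperplasia arrays 5 and 6, at 8.73 and 8.37, lay above the lower pool and the other 6 below both. The difference was -0.61 ± 0.26 with a 95% confidence interval from -1.15 to -0.06 (limma, adjusted p = 0.172). It was at -0.25 without young pool 2 and at -0.97 without young pool 1. Of the cortex markers 3 of 10 fell here, where 493 of 14217 genes fell, with a list mean of 10.49 to 11.29 against 11.61 to 11.74. That number was 0 without either young pool and without the arrays with discordant Xist. With the cortex mean as a covariate S100b was at -0.43.

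Mbp 1387341_a_at was at 6.36 to 7.06 in hyperplasia, with a median of 6.74, and at 7.29 and 7.15 in the young pools. All 8 hyperplasia arrays lay below both pools, with a difference of -0.53 ± 0.17 (limma, adjusted p = 0.0676), which passed only when hyperplasia array 6, the highest of the 8, was left out, at -0.58 (limma, adjusted p = 0.0403). Mbp 1368810_a_at was also below both pools on every hyperplasia array, at 7.04 to 7.96 against 8.15 in each pool, a difference of -0.50 ± 0.26 (limma, adjusted p = 0.259). Mbp 1383479_at, in contrast, was at 9.70 to 10.46 against 9.80 and 9.61, a difference of 0.36 ± 0.21 that did not pass.

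Sox10 was at 6.93 to 7.80 in hyperplasia, with a median of 7.56, around the young pools at 7.32 and 7.40. Its difference of 0.11 ± 0.20 had an interval from -0.32 to 0.54. Pmp22 1370247_a_at was at 11.97 to 12.24 in hyperplasia, above both pools at 11.89 and 11.88, by 0.22 ± 0.13 (limma, adjusted p = 0.345). For Pmp22 1370504_a_at the difference was 0.17 ± 0.20, for Gfap 0.35 ± 0.25, for Erbb3 0.07 ± 0.14 and for Fabp7 -0.07 ± 0.11, and in these 4 the arrays of the groups overlapped. The directions of Gfap and Erbb3 turned with the pool left out, Gfap being at -0.04 without young pool 2 and 0.75 without pool 1, and Erbb3 at 0.27 and -0.12.

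The mutant effects in the older and in the young rats were not shown to differ for any member. In limma, 0 of 10 passed the test of the difference between the effects, as did 0.0258% of all probe sets, 8 in number. S100b had a difference between effects of -0.83 ± 0.38 (limma, adjusted p = 0.438) and Sox10 one of 0.57 ± 0.30 (limma, adjusted p = 0.495). At an unadjusted p under 0.05 there was 1 of 10, against 11.1% of all probe sets.

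Both Pmp22 probe sets and 2 of the 3 Mbp probe sets were lower in the older pools. In older against young wild type 4 of 10 member probe sets passed and all 4 were lower, where 23.7% of all probe sets passed, 13.3% lower. The same 4 did not overlap between the ages, nor did 61.9% of all probe sets. Mbp 1387341_a_at was at 5.42 and 5.13 in the older pools and 7.29 and 7.15 in the young ones, 3.87-fold lower, a difference of -1.95 ± 0.21 (limma, adjusted p = 1.29e-05). Pmp22 fell on both probe sets, with differences of -1.27 ± 0.25 on 1370504_a_at (limma, adjusted p = 0.0019) and -0.98 ± 0.17 on 1370247_a_at (limma, adjusted p = 0.00068). Mbp 1383479_at fell by 0.98 ± 0.26 (limma, adjusted p = 0.0133), a call lost without older pool 2, at -0.90, and without young pool 1, at -0.88. S100b and Sox10 did not pass, at -0.00 ± 0.33 and -0.24 ± 0.25, with intervals from -0.70 to 0.69 and from -0.77 to 0.30. Of the 18 glial genes described below, 2 rose and 2 fell between the ages, with a median of -0.19. Of the 17 other myelin genes 2 rose and none fell. Of 10 fibroblast and pericyte markers 4 fell, of 11 macrophage and leukocyte markers 3 and of 9 chromaffin markers 1, and none rose. Of 9 endothelium markers 1 rose and 1 fell. Over all 14217 genes 1220 rose and 1841 fell. Over the 16 arrays the 4 member probe sets that fell correlated with the fibroblast mean at r = 0.73 to 0.81. Within the 8 hyperplasia arrays r was -0.07 to 0.05. The part of these cells was not tested. Lgi4, a glial gene, was at -0.72 ± 0.33 without overlap and did not pass (limma, adjusted p = 0.123). The ages, the 3′ to 5′ values above and possibly a separate normalization run together in these arrays and cannot be told apart.

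In pheochromocytoma against hyperplasia, which crosses the ages in the same way, 5 of 10 member probe sets passed, all lower in the tumours, where 40.7% of all probe sets passed and 20.3% were lower. In 4 of 10 the arrays did not overlap, against 26.4% of all probe sets. Pmp22 1370504_a_at was at 8.66 to 9.70 in the tumours and 10.41 to 10.97 in hyperplasia, a difference of -1.47 ± 0.15, and the difference of Pmp22 1370247_a_at was -0.80 ± 0.10. For Mbp 1387341_a_at the difference was -1.43 ± 0.13 and for Mbp 1383479_at -0.46 ± 0.16 (limma, adjusted p = 0.0305), the latter with overlapping arrays and short of the threshold in 9 alternatives. S100b was at 6.98 to 7.50 in the tumours, below each hyperplasia array, with a difference of -0.84 ± 0.20 (limma, adjusted p = 0.0031). Of these 5, S100b did not pass between the wild-type ages, and the test of that contrast is the difference between the mutant effects given above. This comparison and the one with older wild type share the tumour arrays.

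Ordered by group mean, S100b ran from young wild type (8.65) and older wild type (8.65) through hyperplasia (8.04) to pheochromocytoma (7.21), and in that order the tumours are the step without overlapping arrays. Sox10 ran from pheochromocytoma (7.81) through hyperplasia (7.47) and young wild type (7.36) to older wild type (7.12), and each neighbouring pair overlapped. Mbp 1387341_a_at ran from young wild type (7.22) to hyperplasia (6.69), without overlap, and then to older wild type (5.27) and pheochromocytoma (5.26), which overlapped. Gfap, Erbb3, Fabp7 and Mbp 1368810_a_at overlapped between all neighbours.

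Several member probe sets varied more over the 8 hyperplasia arrays than most probe sets did. The SD of S100b was 0.36, at the 91st percentile of all probe sets, that of Gfap 0.39, at the 93rd, and that of Sox10 0.29, at the 83rd. Mbp 1368810_a_at lay at the 90th percentile and Mbp 1383479_at at the 86th. The SD of Pmp22 1370247_a_at was 0.08, at the 5th percentile, against a median of 0.18. The arrays split into 4 with high Xist (arrays 3 to 6) and 4 with low Xist (arrays 1, 2, 7 and 8), each set holding 2 labelled female and 2 labelled male. In 4 of 10 member probe sets the Xist sets did not overlap, against 15.9% of all probe sets.

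S100b was at 8.00 to 8.73 on the arrays with high Xist and 7.65 to 7.96 on those with low Xist. Mbp 1368810_a_at was also higher with high Xist, at 7.87 to 7.96 against 7.04 to 7.64. Mbp 1383479_at went the other way, at 9.70 to 10.01 against 10.03 to 10.46, as did Pmp22 1370504_a_at, at 10.41 to 10.64 against 10.70 to 10.97. In the young pools S100b had the opposite order, with 8.29 in the pool with high Xist and 9.01 in the pool with low Xist. The cortex list mean was 10.49 to 10.97 with high and 10.73 to 11.29 with low Xist. These sets were read from the arrays and not from the labels, so no test was made of them.

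Among the 14217 genes, leaving out the members, those whose values over the 16 arrays were most like Sox10 were Lgi4 (r = 0.87), Gpr37l1 (r = 0.86) and Sostdc1 (r = 0.86), and 0.134% of genes had an r over 0.8. Lgi4 codes for a protein that Schwann cells secrete, and Gpr37l1 for a receptor of glia. All 3 are also on the list of glial genes described below. That list was chosen with earlier results of these data known, so the overlap is no separate support. The points share their groups, so these are descriptions.

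Lgi4 was at 8.29, 8.88, 8.45 and 8.61 in the tumours and 7.87 and 7.24 in the older pools, with each tumour above both pools. It rose by 1.00 ± 0.28 (limma, adjusted p = 0.0277), a call lost without older pool 2 at 0.68 and with the cortex covariate at 0.48. In hyperplasia Lgi4 ran from 7.73 to 8.79 around the young pools at 8.25 and 8.30, and its 4 highest arrays, 3 to 6, are those with high Xist. Sostdc1, which codes for a secreted inhibitor of BMP and Wnt signals, was at 8.33 to 9.84 in the tumours and 7.43 to 7.73 in the older pools, a difference of 1.62 ± 0.53, and for Gpr37l1 the difference was 0.39 ± 0.19. As these 3 genes were chosen for their likeness to Sox10, their differences do not support its own.

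**Figure D3:**
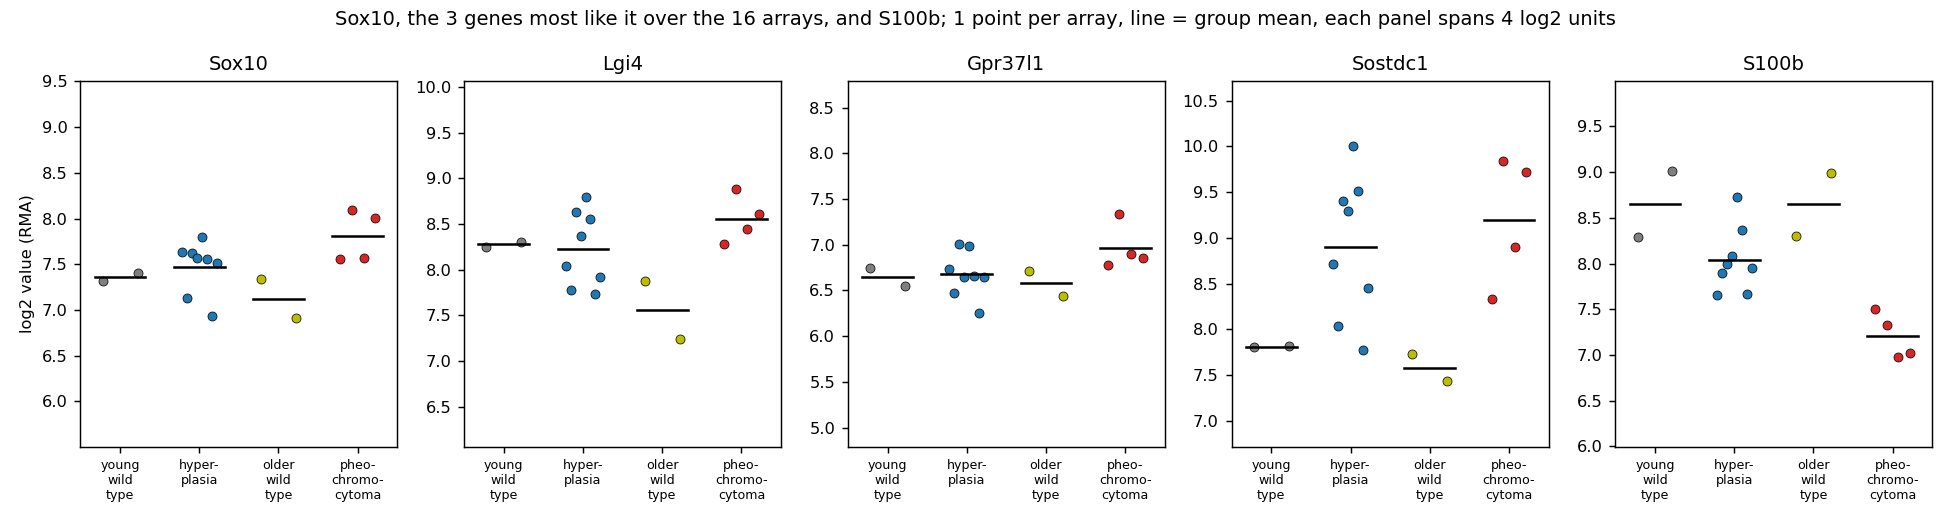
Log2 value (vertical axis) of Sox10, of the 3 genes most like it and of S100b on the 16 arrays, by group (horizontal axis), with 1 point per array and a line at the group mean. The 4 tumours lie above both older pools for Sox10, Lgi4, Gpr37l1 and Sostdc1 and below them for S100b.

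S100b had other neighbours, namely Syngr2 (r = 0.92), Lyplal1 (r = 0.92) and Sdha (r = 0.90), none of them on the glial list, and 0.802% of genes had an r over 0.8. Sdha codes for a subunit of succinate dehydrogenase, the mitochondrial enzyme whose subunit genes are mutated in some human pheochromocytomas. Its difference in the tumours was -0.62 ± 0.15, that of Lyplal1 -0.63 ± 0.17 and that of Syngr2 -0.47 ± 0.13, which are descriptions, since these genes were chosen for their likeness to S100b. The genes most like the brightest Pmp22 probe set were Ralgds, Ace and C19h1orf198 (r = 0.98, 0.97 and 0.97), with 6.55% of genes over 0.8, and those most like Mbp 1383479_at were Ap1m1, Lmnb1 and Cnot11 (r = 0.96, 0.94 and 0.94). For Gfap (Kiaa1614, Mmp11 and Ttc22) and Fabp7 (Kcnk12, Slc13a3 and Jak3) no gene reached an r of 0.8, and for Erbb3 the likest were Ccl9, Amy1 and Htr1f.

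Several other glial genes were higher in the tumours. Of the 18 measured on a list of them 4 rose in pheochromocytoma and none fell, and 14 lay above 0, with a median of 0.39, against 1374 that rose and 1009 that fell of 14217 genes, with a median of 0.01. L1cam, an adhesion molecule of axons and Schwann cells that chromaffin cells also express, rose by 2.11 ± 0.23, from 7.46 to 7.61 in the older pools to 9.13 to 9.91 in the tumours. Ttyh1, a channel-like membrane protein of glia, rose by 1.19 ± 0.30 (limma, adjusted p = 0.0162), and Ngfr, the low-affinity neurotrophin receptor of Schwann and sympathoadrenal cells, by 0.66 ± 0.18 (limma, adjusted p = 0.0262). Lgi4 was the fourth, and the list also holds Gpr37l1 and Sostdc1, which with Lgi4 were the genes most like Sox10. The number that rose was 1 without older pool 2, 6 without older pool 1 and 1 with the cortex covariate, and L1cam passed in all 17 alternatives.

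In hyperplasia 2 of the 18 rose and none fell, with a median of 0.14 against -0.01 over all genes, of which 771 rose and 493 fell. They were L1cam, by 1.90 ± 0.21, and Ngfr, by 0.73 ± 0.17 (limma, adjusted p = 0.0152). L1cam was at 9.05 to 10.04 in hyperplasia and 7.81 to 7.84 in the young pools and passed in all 21 alternatives, while Ngfr did not pass when either young pool was left out. Ttyh1 was at 7.59 to 8.68 against 7.78 to 8.03 there, and its difference between older and young wild type was -2.53 ± 0.35.

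**Figure D4:**
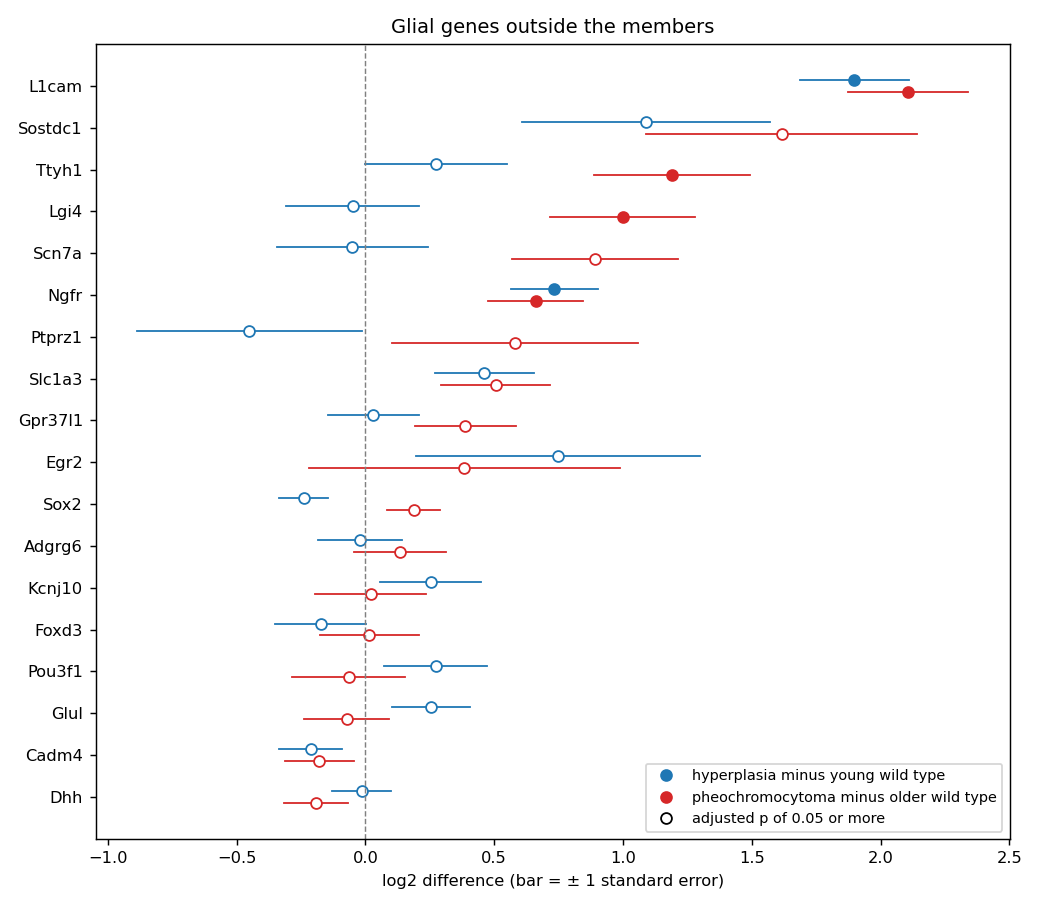
Log2 difference (horizontal axis) of the 18 measured glial genes outside the members (vertical axis) in hyperplasia against young wild type (blue) and in pheochromocytoma against older wild type (red), with bars of 1 standard error and filled points where the adjusted p was under 0.05. L1cam and Ngfr are filled in both comparisons, Ttyh1 and Lgi4 in red.

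Of 17 other myelin genes measured, 1 rose and 1 fell in the tumours, where 1374 rose and 1009 fell of 14217 genes. Only 2 of the 17 differences lay above 0, against 7185 over all genes. Nfasc rose by 1.70 ± 0.33 in pheochromocytoma (limma, adjusted p = 0.0037) and Cnp fell by 0.47 ± 0.14 (limma, adjusted p = 0.0370), with a median of -0.08. Nfasc codes for neurofascin, a node adhesion protein that neurons also make, and Cnp for a phosphodiesterase of myelinating cells. In hyperplasia Nfasc rose by 1.13 ± 0.30 (limma, adjusted p = 0.0330) and no other passed, the next being Mal at -0.58 (limma, adjusted p = 0.0892). Cnp passed in 8 of 17 alternatives and was at -0.25 without older pool 2 (limma, adjusted p = 0.494). Nfasc was at 1.14 in the tumours with the cortex covariate (limma, adjusted p = 0.232) and did not pass without older pool 2, at 1.48. Its call in hyperplasia was lost without young pool 1 and without young pool 2 (limma, adjusted p = 0.118 and 0.287) and with the cortex covariate, at 0.72 (limma, adjusted p = 0.393).

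Around Erbb3, the neuregulin and ErbB list had 19 measured genes. Nrg2, a neuregulin ligand, was higher in mutants of both ages, by 0.88 ± 0.17 in hyperplasia (limma, adjusted p = 0.0053) and 0.68 ± 0.18 in pheochromocytoma (limma, adjusted p = 0.0232). It was at 6.58 to 7.22 in hyperplasia against 6.09 to 6.20, and at 6.34 to 6.97 in the tumours against 5.95 to 6.07, without overlap in either, and did not pass in either comparison when a wild-type pool was left out. Egfr, the epidermal growth factor receptor, fell by 1.39 ± 0.22 in hyperplasia (limma, adjusted p = 0.0016), from 7.94 to 8.35 in the young pools to 6.43 to 7.40, and was at 7.33 to 7.96 in the tumours against 7.65 to 7.95. The hyperplasia call held in 19 of 21 alternatives, with Egfr at -1.18 without young pool 2 and -1.59 without young pool 1.

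In the tumours Rnf41, a ubiquitin ligase that turns over ErbB3, rose by 0.39 ± 0.12 (limma, adjusted p = 0.0383), a call that held in 6 of 17 alternatives. The ligand gene Tgfa fell by 1.43 ± 0.32, with older pools at 6.66 and 8.35, so that without pool 2 it was at -0.58. The ErbB inhibitor gene Errfi1 fell by 0.77 ± 0.23, though its arrays overlapped. It passed in 10 of 17 alternatives and was at -0.18 without older pool 2 (limma, adjusted p = 0.681) and at -1.36 without older pool 1. In all 1 rose and 1 fell of 19 in hyperplasia, where 771 rose and 493 fell of 14217 genes. In the tumours 2 rose and 2 fell, where 1374 rose and 1009 fell of all genes, and both numbers were 0 without older pool 2. With the cortex covariate no gene of this list passed in either comparison.

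Several relatives of S100b rose in the tumours. Of 12 other S100 genes 7 rose in pheochromocytoma and none fell, with a median of 0.66. Over all 14217 genes 1374 rose and 1009 fell there, with a median of 0.005. S100a9 and S100a8, which code for calprotectin of neutrophils and monocytes, rose by 1.73 ± 0.41 and 0.81 ± 0.23 from means of 4.75 and 3.77, under the first quartile of the older pools. The tumour mean of S100a8, 4.57, was also under the first quartile of the tumour arrays, and that of S100a9 was 6.48. S100a13 rose by 1.02 ± 0.22 and S100a6 by 0.96 ± 0.24. S100a13 was at 9.28 to 10.03 in the tumours against 8.56 to 8.78, and S100a6, calcyclin, at 11.20 to 11.99 against 10.60 to 10.88. In hyperplasia 3 rose and none fell, where 771 rose and 493 fell of 14217 genes. They were S100a13, by 1.03 ± 0.20 (limma, adjusted p = 0.0059), S100a6, by 0.85 ± 0.22, and S100a3, by 0.63 ± 0.18. The 7 became 0 without older pool 2, 4 without older pool 1 and 0 with the cortex covariate, and the 3 became 0 without young pool 1 and 1 without young pool 2.

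The remaining relatives gave few calls. Over all 14217 genes 771 rose and 493 fell in hyperplasia, and 1374 rose and 1009 fell in the tumours. An unadjusted p was under 0.05 in limma for 22.7% of all probe sets in hyperplasia and 29.6% in the tumours. Of 15 neural crest and glial transcription factors none passed in hyperplasia in limma, with 5 at an unadjusted p under 0.05, all higher. In the tumours Sox6, with means of 4.28 and 3.67 and so under the first quartile of their arrays, rose by 0.60 ± 0.18, a call that held in 6 of 16 alternatives. Jun, an immediate early gene, fell by 1.25 ± 0.31, with overlapping arrays, and was at -0.60 without older pool 2 (limma, adjusted p = 0.376) and at -1.89 without older pool 1. Of 10 other fatty acid binding proteins none passed in either comparison in limma, with 1 in hyperplasia and 2 in the tumours at an unadjusted p under 0.05, all lower. Among 10 intermediate filaments besides Gfap, Prph, the peripherin of peripheral neurons, rose by 1.04 ± 0.18 in hyperplasia and 1.22 ± 0.20 in the tumours. Prph passed in 18 of 21 alternatives in hyperplasia and in 15 of 17 in the tumours. With the cortex covariate it was at 0.97 and 1.12 and passed in neither (limma, adjusted p = 0.0545 and 0.0885). Ina and Lmna rose in the tumours while Des, the desmin of muscle, fell by 0.53 ± 0.16. Des passed in 7 of 17 alternatives, and without older pool 2 the number of filament genes that rose was 1. Among 7 relatives of Pmp22, Cldn1 and Emp3 each fell by 0.56 in the tumours, and neither passed without older pool 2. There Emp3 was at -0.30 (limma, adjusted p = 0.464), while Cldn1 passed in 7 of 17 alternatives and was at -0.37 with the cortex covariate. None of the 7 passed in hyperplasia in limma, with 1 at an unadjusted p under 0.05.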

How the data were processed

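Expression of 16 rat adrenal samples was measured on Affymetrix arrays, from total RNA extracted with Trizol and RNeasy columns and labelled with biotin. The deposited values are log2 values per probe set, made by the authors with RMA, per the submitters' processing notes. Whether RMA was run on all arrays at once is not stated. The 57 control probe sets were left out and no filter on low values was used. Symbols came from the platform annotation, where 20826 probe sets have 1 symbol, 436 several and 9780 none, and 20758 symbols were looked up again by Entrez identifier with 0 changes. A list gene was represented by its brightest probe set.

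The test was limma (version 3.58.1, R version 4.3.3; two-sided, Benjamini-Hochberg) on 4 group means, all 16 arrays sharing 1 residual SD per probe set (12 degrees of freedom), with no sex term. The script was tested on simulated data. The number of arrays limits the precision.

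The members, lists and tests were chosen with earlier results of these data known. Genes named outside the members are, per list and comparison, up to 4 that passed with the largest differences, or the lowest p-values up to 2, and the 3 most correlated with each member. Egfr and Ttyh1 are also given in comparisons where the rule did not name them. Alternatives were labelled sex, Xist level, scaling, weights, the replicate number, cortex markers, subsets of arrays and other filters.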

Additional observations from a re-analysis of the deposited data

How the results depend on the processing

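Of the members in pheochromocytoma against older wild type, S100b passed in 15 of 17 alternatives (-1.79 to -1.09), Mbp 1383479_at in 13 of 17 and Sox10 in 5 of 17, and each kept its direction. The number of member probe sets that passed, 3, was 1 with array weights, 1 with the replicate block, 0 with the cortex marker mean and 0 to 4 when 1 array was left out, with 0 without older pool 2. In hyperplasia it was 0 to 1 when 1 array was left out. No pairing by replicate number was shown: deviations of same-numbered arrays correlated at -0.08 and 0.05 (hyperplasia and young) and at -0.06 and 0.05 (tumours and older). The deviations of 2 pools from their mean mirror each other, so these values cannot decide whether arrays were paired. With the block, Sox10 was at 0.64 (limma, adjusted p = 0.140) and Mbp 1383479_at at 0.94 (limma, adjusted p = 0.0854), and between the wild-type ages Mbp 1383479_at was at -0.98 (limma, adjusted p = 0.0511). The cortex markers that fell were 0 in both comparisons. Over all probe sets, hyperplasia gave 2296 calls, 689 without the arrays whose Xist goes against the label, 556 with the replicate block, 367 with the cortex mean and 564 to 2687 with 1 array left out (910 without young pool 1, 564 without young pool 2). The tumours gave 4425, 1915 from the compared groups alone, 1593 with the block, 176 with the cortex mean and 596 to 4781 with 1 array left out (596 without older pool 2). They were 2579 higher and 1846 lower, but 1938 higher and 2416 lower with arrays centred on the median. The difference between effects gave 8, then 1 without the arrays with discordant Xist, 14 with quantile normalization, 3 with centring, 1 with weights, 0 with the block, 2 with the cortex mean and 0 to 649 with 1 array left out (649 without older pool 1). Older against young wild type gave 7366, 3770 from those groups alone and 4500 to 5763 with 1 array left out. Mbp 1383479_at in pheochromocytoma against hyperplasia fell short of the threshold with the Xist level as a covariate (-0.35), with quantile normalization (-0.37) and in 7 other alternatives. Leaving out a pool leaves a lone pool, which takes its spread from the other arrays. The causes were not tested. Low signal limits Fabp7.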
